A study of Mus musculus with 8 samples.

Results

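The genes that melanocytes use to make pigment were followed in the skin of BALB/c mice, an albino strain, as 10 of the 22740 protein-coding genes with listed counts. They were chosen by name: Mitf and Sox10, the transcription factors of the lineage; Mc1r, the receptor for melanocortins; Tyr, Tyrp1 and Dct, the enzymes of melanin synthesis; Pmel and Mlana, proteins of the melanosome; and Slc45a2 and Oca2, transporters of its membrane. Each gene was found once in the table.

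Melanocytes of haired mouse skin live mainly in the hair follicle, where they make melanin in lysosome-related organelles called melanosomes and hand it to the keratinocytes of the growing hair shaft. Signalling through Mc1r and Kit acts on Mitf, which with Sox10 switches on the enzyme and melanosome genes, and in the follicle this programme runs while the hair is growing (anagen) and stops when it regresses. BALB/c mice carry a loss-of-function allele of Tyr, the rate-limiting enzyme, so their melanocytes are present but make no melanin. Read counts of Tyr and its partners therefore report transcripts of the pigment programme and not pigment.

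The study asked how dietary butyrate, a short-chain fatty acid that gut microbes make from fibre, acts on skin in house dust mite (HDM) induced atopic dermatitis, and 8 skin RNA libraries from 8 female BALB/c mice, 6 to 8 weeks of age by their labels, were analysed here. All mice ate a low-fibre diet. In the butyrate groups, called SCFA in the labels, the drinking water held 400 mM sodium butyrate from 2 weeks before exposure onwards. The CTL mice, called Vehicle in the labels, drank without it. Lesional skin, labelled Atopic dermatitis, was shaved dorsal skin covered with gauze carrying 15 µg HDM at each of 4 exposures over 2 weeks, and baseline skin came from unexposed mice. Each of the 4 groups held 2 mice: baseline CTL (replicates 1 and 2), baseline butyrate (1 and 3), lesional CTL (4 and 5) and lesional butyrate (3 and 4). The first number in the label differs between unexposed and exposed mice, so exposure cannot be told apart from a difference between 2 sets of mice.

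Library totals were 18004136 to 21085544 counts, and levels are given as CPM, a gene's counts scaled to a common total after TMM scaling, on which 3 counts equal 0.138 to 0.169 CPM. One library stood apart. Between the baseline butyrate mice 3853 of 14315 genes with a mean of at least 1 CPM (26.9%) differed more than 2-fold, against 207 to 685 genes between the mice of each other group. The library called here baseline butyrate replicate 3 had a hair follicle signal that no other library had, described with the genes below. Every result that rests on this library is given with and without it. In bulk skin, fewer cells of a type and less RNA per cell cannot be told apart.

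The promoters of the enzyme genes are shown first because they carry the letters through which Mitf is known to act, the M-box TCATGTG, an extended form of the E-box CATGTG. RefSeq promoter windows on GRCm38.p6, from 250 bases before to 50 bases after a start site, were matched for 6 of the 10 genes, in 8 windows (Dct, Tyr, Tyrp1, Oca2, Mc1r, and 3 for Mitf). Capitals mark the M-box on either strand in the windows of Dct (chr14:118052197-118052496, minus strand), Tyr (chr7:87493463-87493762, minus strand), Tyrp1 (chr4:80833963-80834262, plus strand) and Mc1r (chr8:123406832-123407131, plus strand), each printed 5′ to 3′ along its gene.
Dct: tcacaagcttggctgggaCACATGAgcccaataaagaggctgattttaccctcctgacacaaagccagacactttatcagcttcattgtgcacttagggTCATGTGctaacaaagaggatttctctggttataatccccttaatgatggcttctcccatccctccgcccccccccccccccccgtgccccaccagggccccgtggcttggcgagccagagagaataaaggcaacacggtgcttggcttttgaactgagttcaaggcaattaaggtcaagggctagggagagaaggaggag
Tyr: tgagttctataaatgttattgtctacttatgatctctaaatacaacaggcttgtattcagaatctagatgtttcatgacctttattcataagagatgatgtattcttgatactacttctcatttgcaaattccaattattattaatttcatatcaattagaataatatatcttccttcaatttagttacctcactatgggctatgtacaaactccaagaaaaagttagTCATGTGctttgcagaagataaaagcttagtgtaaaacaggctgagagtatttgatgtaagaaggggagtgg
Tyrp1: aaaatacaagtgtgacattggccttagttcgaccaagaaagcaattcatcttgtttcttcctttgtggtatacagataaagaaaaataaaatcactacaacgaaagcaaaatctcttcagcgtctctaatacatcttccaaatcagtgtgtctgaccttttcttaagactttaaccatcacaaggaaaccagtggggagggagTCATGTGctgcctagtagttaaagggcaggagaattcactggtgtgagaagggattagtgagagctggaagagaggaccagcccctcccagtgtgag
Mc1r: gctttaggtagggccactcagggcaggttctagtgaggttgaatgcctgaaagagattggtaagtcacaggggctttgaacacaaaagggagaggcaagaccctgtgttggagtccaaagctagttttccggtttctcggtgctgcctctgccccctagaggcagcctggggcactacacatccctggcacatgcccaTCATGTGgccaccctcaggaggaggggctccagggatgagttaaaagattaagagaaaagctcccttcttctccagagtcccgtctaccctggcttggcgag

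The M-box was in 4 of these 8 windows, while 3.77% of the 32851 windows searched held it. It begins 22 bases upstream of the start in Tyr, 47 in Tyrp1 and 52 in Mc1r, and Dct has a pair of matches, at 151 bases on the gene's strand and at 232 bases on the other. The shorter CATGTG, which every M-box contains, was in 5 of the 8 windows (14.2% of all), with Oca2 added, and the other E-box searched, CACGTG, was in 0 of the 8 (7.15% of all). The promoters were shown because they carry these letters, so the shares describe the windows and test nothing. A match gives the letters in a window and no binding.

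Counts are sums over each gene's exons, placed here with GENCODE vM21 on GRCm38: Dct (ENSMUSG00000022129) at chr14:118012790-118052244, Tyr (ENSMUSG00000004651) at chr7:87424771-87493512, Tyrp1 (ENSMUSG00000005994) at chr4:80834123-80851719, Pmel (ENSMUSG00000025359) at chr10:128704195-128720238, Mlana (ENSMUSG00000024806) at chr19:29697824-29708634, Slc45a2 (ENSMUSG00000022243) at chr15:11000721-11029233, Oca2 (ENSMUSG00000030450) at chr7:56239760-56536518, Mitf (ENSMUSG00000035158) at chr6:97807052-98021349, Sox10 (ENSMUSG00000033006) at chr15:79154908-79165240 and Mc1r (ENSMUSG00000074037) at chr8:123407107-123410744. Exons of Pmel overlap Cdk2 and Dgka on the opposite strand over 139 bases, and those of Mc1r overlap Gm38092 over 653, so reads there are uncertain: the authors name the table as reverse-stranded counts, and whether the kit kept strand is not given in the sources used here. Mitf is started from several promoters in different cell types, and a sum over exons does not separate the melanocyte form from the others.

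In 7 of the 8 libraries each of the 8 pigment genes other than Mitf and Sox10 was at 22.7 CPM or less. In baseline butyrate replicate 3 all 8 were many times higher. Together these 8 genes, which few skin cells other than melanocytes use, summed to 777 CPM in that mouse and to 24.8 to 44.5 CPM in the other 7. Folds between the 2 baseline butyrate mice are given as the ratio of replicate 3 to replicate 1 with an exact 95% interval that covers counting error only, and no fold between single mice is a test of butyrate.

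Among the enzymes, Dct, the dopachrome tautomerase that acts late in melanin synthesis, was at 20.2 and 22.7 CPM in baseline CTL, 17.3 and 277 in baseline butyrate, 20.9 and 12.2 in lesional CTL, and 16.1 and 16.6 in lesional butyrate. Only the baseline butyrate replicate 3 value left the range of 12.2 to 22.7, and its ratio to replicate 1 was 16.1 (14.3 to 18.1). Tyrp1, which acts beside tyrosinase in the melanosome, was at 11 and 12.1 CPM in baseline CTL, 8.32 and 237 in baseline butyrate, 13.4 and 7.41 in lesional CTL, and 11.1 and 10.3 in lesional butyrate. Its ratio was 28.5 (24.2 to 33.8). Tyr itself, the gene inactivated in albino mice, had 0.554 and 0.498 CPM in baseline CTL, 0.562 and 53.1 in baseline butyrate, 1.38 and 0.644 in lesional CTL, and 0.524 and 0.325 in lesional butyrate, from 7 to 26 counts in all but replicate 3. With 1118 counts against 10, the ratio of Tyr between the baseline butyrate mice was 94.5 (51.2 to 198).

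Of the melanosome proteins, Pmel, whose amyloid fibrils form the scaffold on which melanin is laid down, was at 5.76 and 5.59 CPM in baseline CTL, 4.05 and 116 in baseline butyrate, 7.35 and 3.50 in lesional CTL, and 3.81 and 4.32 in lesional butyrate. Mlana, a melanosome membrane protein known as MART-1, was at 1.16 and 1.05 CPM in baseline CTL, 1.41 and 38.5 in baseline butyrate, 1.01 and 0.967 in lesional CTL, and 1.43 and 0.650 in lesional butyrate. For both, the groups other than baseline butyrate overlapped or lay close to each other, and the ratios within baseline butyrate were 28.5 (22.6 to 36.6) for Pmel and 27.4 (18.4 to 42.6) for Mlana.

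Slc45a2, Oca2 and Mc1r were at the limit of counting outside replicate 3. The transporter Slc45a2, needed to keep the melanosome at the pH that tyrosinase requires, had 2 and 4 counts in baseline CTL, 1 and 344 in baseline butyrate, 5 and 1 in lesional CTL, and 4 and 2 in lesional butyrate, so its ratio of 291 had an interval from 51.8 to 11514. Oca2, the anion channel mutated in pink-eyed dilution mice, had 597 counts in replicate 3, 2 in lesional CTL replicate 4, 1 in lesional butyrate replicate 3 and 0 in each of the other 5 libraries. Mc1r, on which melanocortin and agouti signals converge, had 2 and 2 counts in baseline CTL, 0 and 223 in baseline butyrate, 1 and 1 in lesional CTL, and 2 and 0 in lesional butyrate. Set against a floor of 3 counts in replicate 1, Oca2 was at least 168-fold and Mc1r at least 62.8-fold higher in replicate 3, and the exact 95% intervals begin lower, at 136 and 50.7. At this depth none of these 3 genes could be compared between groups without that library, and they passed the low-count filter of the test neither with all 8 libraries nor without replicate 3.

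**Figure D1:**
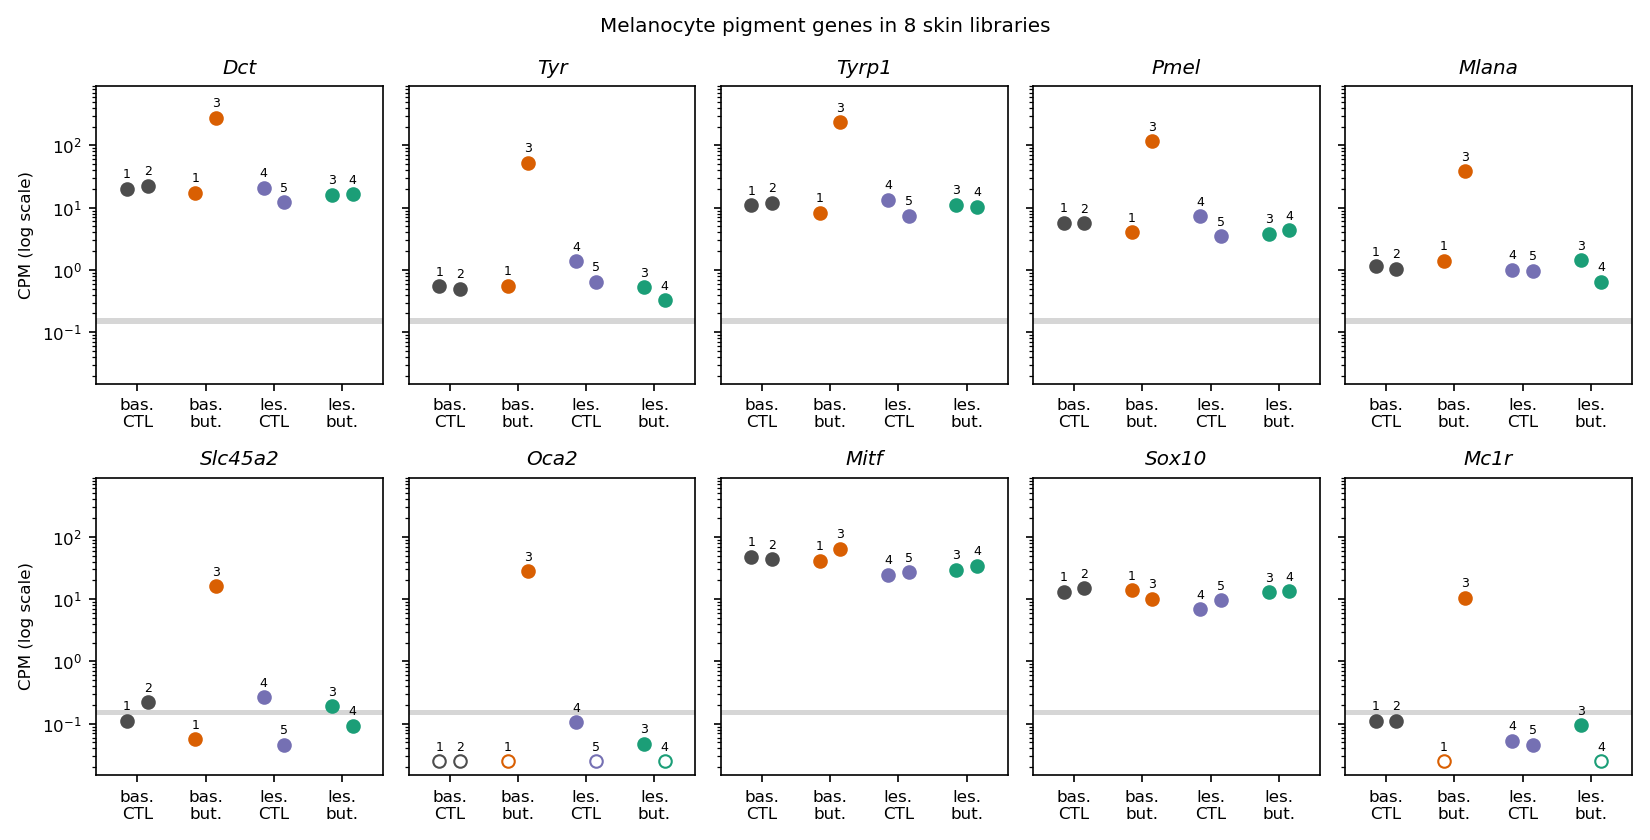
Level of each of the 10 pigment genes in CPM (log axis) in the 8 libraries, 2 per group, where bas. is baseline, les. lesional and but. butyrate, the digit beside a point is the replicate, the grey band is the level of 3 counts (0.138 to 0.169 CPM) and open circles at the bottom are libraries with 0 counts. In 8 panels baseline butyrate replicate 3 lies far above the other 7 libraries, while Mitf is 65.1 CPM there against 24.6 to 48.3 and Sox10, at 10.1 CPM, lies inside the others' range of 6.92 to 14.9.

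The transcription factors did not stand apart as the other 8 genes did. Mitf, the helix-loop-helix factor of the lineage, was at 48.3 and 43.8 CPM in baseline CTL, 41.2 and 65.1 in baseline butyrate, 24.6 and 27.0 in lesional CTL, and 29.9 and 34.7 in lesional butyrate. It was highest in replicate 3, at 1.58 times the level in replicate 1 (1.44 to 1.73). Sox10, the neural crest factor that acts upstream of Mitf, was at 13.1 and 14.9 CPM in baseline CTL, 13.9 and 10.1 in baseline butyrate, 6.92 and 9.53 in lesional CTL, and 12.9 and 13.5 in lesional butyrate. Its level in replicate 3 was 0.729 times that of replicate 1 (0.604 to 0.879), below it while the 8 other pigment genes were above. Both factors are also used by other cells of skin, Mitf by mast cells and macrophages among others and Sox10 by the Schwann cells of nerves.

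Among the 14315 genes averaging at least 1 CPM, 1.91% (273) were more than 10-fold higher in baseline butyrate replicate 3 than in replicate 1. Dct, Tyrp1, Pmel and Mlana were among them, and Mitf and Sox10 were not. Tyr, Slc45a2, Oca2 and Mc1r also were, but averaged 1 CPM only through replicate 3, so they are not set against this share. No test stands behind this, since it sets 1 library against 1. In the other groups the mice were up to about 2-fold apart for the 7 genes with enough counts. In baseline CTL 0 of them differed more than 2-fold, where 1.81% of all genes with a mean of at least 1 CPM did. In lesional CTL 2 of them, Tyr (1.38 and 0.644 CPM) and Pmel (7.35 and 3.50), did, beside 1.45% of genes, and in lesional butyrate Mlana did, beside 4.79%. The largest difference between mates was 1.14-fold in baseline CTL (Sox10), 2.15-fold in lesional CTL (Tyr) and 2.20-fold in lesional butyrate (Mlana).

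Per kilobase of merged exon, a rough scale for setting genes side by side, the order of the levels differed between replicate 3 and baseline CTL. Merged exons take in all annotated transcripts of a gene and not only those expressed, so ranks between genes depend on the annotation. In baseline CTL, Mitf led with 7.80 and 7.07 CPM per kb, followed by Sox10 (4.29 and 4.88), Tyrp1 (3.89 and 4.28), Dct (3.43 and 3.85), Pmel (2.51 and 2.44) and Mlana (1.10 and 0.993), with Tyr at 0.0779 and 0.0701 and Slc45a2, Mc1r and Oca2 last. Sox10, Tyrp1 and Dct came within less than a mouse-to-mouse difference of their neighbours in that order, so their ranks were not separated, and Tyr overlapped Slc45a2 (0.0372 and 0.0741). In baseline butyrate replicate 3 the order was Tyrp1 (83.8 CPM per kb), Pmel (50.6), Dct (47.0), Mlana (36.4), Mitf (10.5), Tyr (7.47), Oca2 (7.17), Slc45a2 (5.46), Sox10 (3.31) and Mc1r (2.91). Tyrp1, Pmel, Dct and Mlana thus stood above both factors in that mouse. The order also varied among the other libraries: in lesional CTL replicate 4, Tyrp1 (4.74 CPM per kb) was above Mitf (3.97), and Dct (3.55) and Pmel (3.21) were above Sox10 (2.27).

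The make-up of the pigment counts differed too. As shares of the summed counts of the 8 genes, Dct made up 35.7% in baseline butyrate replicate 3 against 46.9% to 54.5% in the other 7 libraries. Tyr made up 6.84% against 1.01% to 3.11%, Slc45a2 2.10% against 0.178% to 0.599%, Oca2 3.65% against 0% to 0.240%, and Mc1r 1.36% against 0% to 0.286%. Mlana, at 4.95%, was just above the others' 2.01% to 4.44%. Tyrp1 (30.5% against 26.3% to 33.3%) and Pmel (14.9% against 11.4% to 16.5%) kept to the range of the other libraries. The 8 genes were therefore not scaled up by 1 factor: Dct, the most abundant by counts, was raised least of them.

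**Figure D2:**
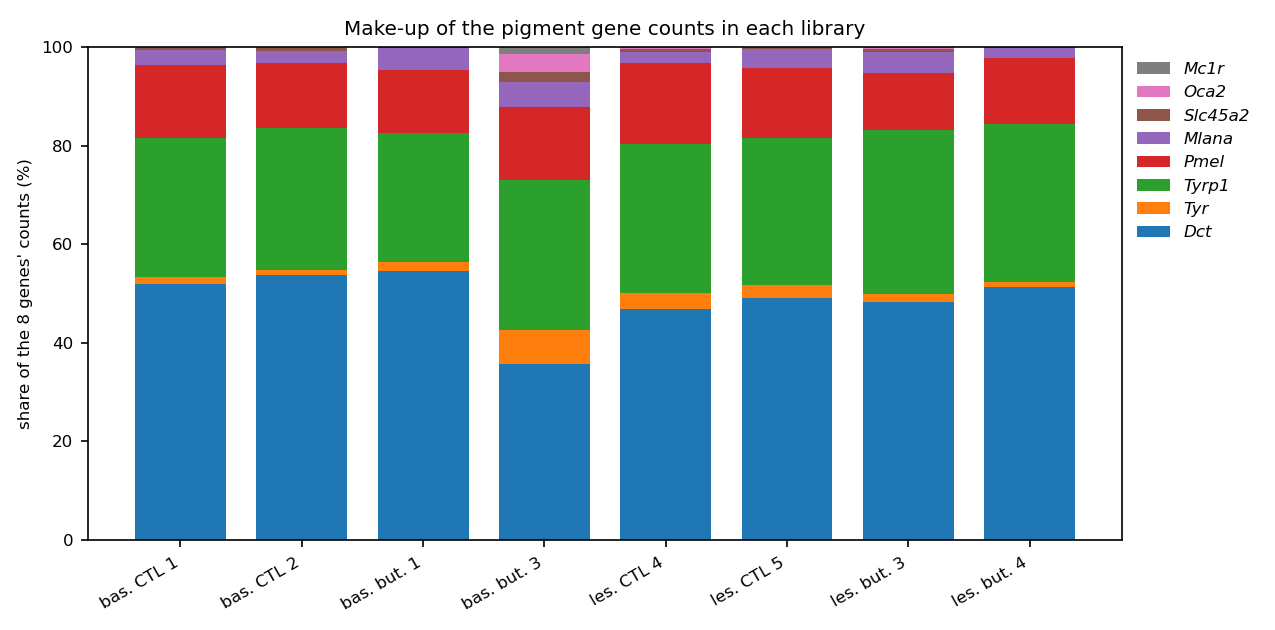
Share of each gene in the summed counts of the 8 pigment genes other than Mitf and Sox10, in percent, with 1 stacked bar for each library (bas. baseline, les. lesional, but. butyrate, and the replicate number). In baseline butyrate replicate 3 the Dct segment is the smallest of the 8 bars (35.7%), and Tyr, Slc45a2, Oca2 and Mc1r are wider than in any other library.

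Hair follicle genes moved with the pigment genes in that library. The 12 hair shaft keratins found summed to 3877 CPM in baseline butyrate replicate 3 and 3.83 to 9.70 CPM in the other 7, and 12 of 12 were more than 10-fold above replicate 1. Krt33a, Krt35 and Krt86, the 3 of highest mean level in this list, were at 708, 532 and 493 CPM in replicate 3 and at no more than 1.27, 0.166 and 0.598 CPM in the others. Genes of the inner root sheath and hair matrix summed to 20146 against 140 to 234 CPM, with 13 of 15 more than 10-fold above replicate 1, led by Tchh (trichohyalin), Krt71 and Krt25. Cell cycle genes, among them Mki67 and Top2a, summed to 739 against 251 to 453 CPM. The hair shaft and inner root sheath lists hold genes that mark a growing follicle. The cell cycle list is not limited to follicles, and summed to 360 to 453 CPM in the lesional libraries against 251 to 279 in the other baseline ones. The part of these lists in the pigment gene levels of this library was not tested.

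As sums, marker lists of other cells were lower in it or inside the range of the rest, while single genes differed. Of the Schwann cell genes, S100b (5.94 against 1.70 to 4.54 CPM) and Ngfr (21.9 against 10.9 to 16.7) were above the other libraries. Mbp (48.9 against 56.6 to 112) and Pmp22 (108 against 141 to 229) were below them. Keratinocyte genes ran from 0.126 times the level in replicate 1 for Krt1 to 2.29 times for Ivl. Lists summed to 367 against 793 to 1633 CPM for 7 macrophage genes, 125 against 178 to 596 for 10 mast cell genes, 8787 against 13600 to 21232 for 7 keratinocyte genes, 10141 against 13730 to 49182 for 8 skeletal muscle genes, 3587 against 3301 to 8382 for 6 fibroblast genes, 1686 against 1364 to 2338 for 6 adipocyte genes and 492 against 445 to 641 for 9 Schwann cell genes. No hair keratin or inner root sheath gene was at 0 in replicate 3, while Krt33b, Krt34, Krt81, Krt26 and Krt73 were at 0 counts in replicate 1.

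**Figure D3:**
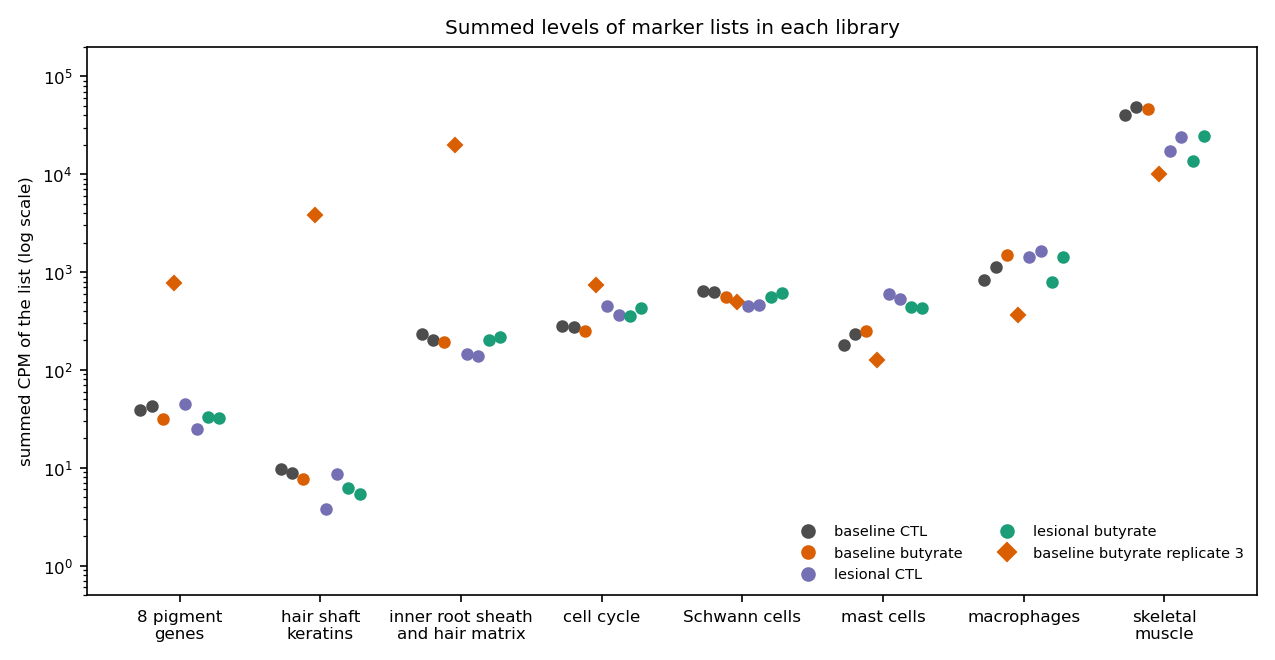
Summed CPM (log axis) of the 8 pigment genes other than Mitf and Sox10 and of 7 marker lists in the 8 libraries, coloured by group and in the same order within each list, with a diamond for baseline butyrate replicate 3. The diamond stands at 777 CPM for pigment genes, 3877 for hair shaft keratins and 20146 for the inner root sheath and matrix, far above all circles, and below all circles for macrophages, mast cells and muscle.

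Other genes of the pigment pathway were taken from 4 lists of 43 genes, of which 42 were found and Asip was not analysed here. Among ligands and receptors, Corin, the protease of the dermal papilla that limits agouti signalling, was at 22.9 CPM in baseline butyrate replicate 3 against 0.111 to 0.332 in the others. Ednrb, Atrn and Mgrn1 had the highest mean levels of the tested genes, and Atrn and Mgrn1, both needed for agouti to act, were at 118 against 64.1 to 78.4 CPM and at 54.7 against 45.6 to 66.5. Ednrb, the endothelin receptor that melanoblasts need, was 1.95-fold (1.83 to 2.08) higher in replicate 3 than in replicate 1, Kitl, the ligand of Kit, 1.58-fold (1.46 to 1.72), and Kit, the receptor on melanocytes and mast cells, 3.33-fold (2.84 to 3.91). Pomc, the precursor of melanocortins, had 0 to 5 counts in every library.

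Of the melanosome membrane and ion transport genes, 5 of 9 were more than 10-fold above replicate 1. Gpnmb, a relative of Pmel, was at 452 CPM in replicate 3 against 16.3 to 26.8 in the others, Trpm1, a cation channel of melanocytes, at 123 against 1.16 to 2.34, Slc24a5, the exchanger behind the golden fish phenotype, at 36.1 against 0.276 to 0.639, and Gpr143, the ocular albinism receptor, at 5.23 against 0 to 0.138. Slc7a11, the cystine transporter mutated in subtle gray mice, was at 46.9 CPM there and at 31.1 and 31.7 in lesional CTL, so it was not high in that library alone. Of the other genes of the list, Cd63 was at 70.2 against 76.3 to 121 CPM, Mfsd12 at 12.6 against 17.6 to 30.7 and Tpcn2 at 12.7 against 16.2 to 30.3, below the other libraries, and Atp7a, a copper transporter, was at 50.1 against 18.6 to 28, above them.

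Biogenesis and transport genes, many of which other cells with lysosome-related organelles also use, summed to 856 CPM in replicate 3 against 636 to 664 in the others. Of these genes, 0 of 16 were more than 10-fold above replicate 1. Mlph (melanophilin), the linker between the melanosome and its motor, was 5.72-fold (4.28 to 7.79) and Myo5a, the motor, 2.34-fold (2.22 to 2.46) higher there, while Rab27a, their partner on the organelle, was 0.832 times (0.729 to 0.95) the level in replicate 1. Ap3d1 and Ap3b1, subunits of the adaptor that sorts cargo to melanosomes, were at 0.966 (0.913 to 1.02) and 1.21 times (1.12 to 1.30). Of the transcription factors, Lef1, which acts in Wnt signalling in both melanocytes and the hair matrix, was at 81.7 CPM against 3.05 to 7.20. Pax3, a partner of Sox10 at the Mitf promoter, was at 4.18 against 1.43 to 5.10 CPM, Tfap2a at 175 against 87.9 to 140, Zeb2 at 53.1 against 68.6 to 119 and Tfe3 at 62.9 against 58.1 to 81.3.

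Butyrate in baseline skin was tested with edgeR's quasi-likelihood test on all 8 libraries, in which 7 of the 10 pigment genes passed the low-count filter, with calls made where the FDR (Benjamini-Hochberg) was below 0.1 and the fold-change over 2. The estimated log2 fold changes were large for Tyr (5.66, SE 1.86), Mlana (4.16, SE 1.39), Tyrp1 (3.41, SE 1.31), Pmel (3.40, SE 1.33) and Dct (2.78, SE 1.10), with an edgeR FDR of 0.714 for each, and small for Mitf (0.21, SE 0.23) and Sox10 (-0.23, SE 0.25). None of the 7 genes was called, and 0% of the 15163 genes tested were. The unadjusted edgeR p was under 0.05 for 5 of the 7 pigment genes and for 529 of all genes, limma-voom called 0 genes, and DESeq2 called 58 genes (0.383%), Tyr and Mlana among them.

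The size of these estimates came from replicate 3. Without it, and with replicate 1 alone standing for baseline butyrate, the log2 fold changes were -0.31 (SE 0.31) for Dct, 0.09 (0.69) for Tyr, -0.47 (0.35) for Tyrp1, -0.49 (0.44) for Pmel, 0.34 (0.51) for Mlana, -0.16 (0.15) for Mitf and -0.02 (0.23) for Sox10, each with an edgeR FDR of 1. With replicate 1 left out instead, and the lone replicate 3 assumed to vary like the other groups, edgeR called Dct, Tyr, Tyrp1, Pmel and Mlana higher, 5 of the 7 genes above, in a fit that called 24.1% of 15677 genes. Slc45a2, Oca2 and Mc1r entered that fit only through replicate 3, where they are high, so their calls are not counted. Whether any pigment gene was called thus depended on which of the 2 mice was left out.

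In lesional skin no pigment gene was called between butyrate and CTL, in a contrast that called 0% of genes with all 8 libraries. An unadjusted edgeR p was under 0.05 for 734 genes. Limma-voom called 1 gene, DESeq2 124, and edgeR on only the compared libraries 25, no pigment gene among them. The 0% thus depended on the fit. The estimates for Dct (-0.01, SE 1.05), Tyrp1 (0.04, SE 1.22), Mlana (0.07, SE 1.38) and Pmel (-0.41, SE 1.27) had SEs over 1 because replicate 3 enters the shared spread, and without it the SEs were 0.25, 0.28, 0.43 and 0.35 with estimates at the same 2 decimals. Tyr was lower in both lesional butyrate mice (11 and 7 counts) than in both lesional CTL mice (26 and 14), a log2 fold change of -1.24 (SE 1.86, edgeR FDR 1), or -1.23 (SE 0.52, FDR 0.343) without replicate 3. Sox10 and Mitf were higher in both butyrate mice than in both CTL mice. The estimates were 0.68 for Sox10 (SE 0.25, edgeR FDR 0.955; SE 0.19, FDR 0.177 without replicate 3) and 0.32 for Mitf (SE 0.23, FDR 1; SE 0.12, FDR 0.287 without it). These 3 of 7 genes whose groups did not overlap compare with 44.9% of all genes tested.

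In CTL mice, Mitf and Sox10 were lower in both HDM-exposed mice than in both unexposed ones. Lesional CTL mice had 24.6 and 27.0 CPM of Mitf against 48.3 and 43.8 in baseline CTL, a log2 fold change of -0.84 (SE 0.23), and 6.92 and 9.53 CPM of Sox10 against 13.1 and 14.9, a log2 fold change of -0.77 (SE 0.25). With all 8 libraries in edgeR the FDRs were 0.139 and 0.177, neither gene was called, and 3.58% of all genes were (543). Without baseline butyrate replicate 3, which is in neither group of this comparison, the estimates were -0.83 (SE 0.12, edgeR FDR 0.00679) for Mitf and -0.77 (SE 0.19, FDR 0.0299) for Sox10. Both then passed the FDR threshold and neither the 2-fold limit, and DESeq2 on all 8 libraries gave FDRs of 0.0442 and 0.08. Over all alternatives the FDR ran from 0.00258 to 0.699 for Mitf and from 0.0244 to 0.753 for Sox10, with every estimate below 0, and the high values came from fits that left out 1 of the 4 mice compared. In the fit without baseline butyrate replicate 3, 19.8% of 15349 genes were lower at an FDR below 0.1 and 12.5% were called with the fold limit.

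The other 5 tested genes did not pass in either fit: without replicate 3 the estimates were -0.38 (SE 0.25) for Dct, 0.92 (0.51) for Tyr, -0.15 (0.28) for Tyrp1, -0.07 (0.35) for Pmel and -0.16 (0.43) for Mlana, with edgeR FDRs from 0.22 to 0.89. Groups did not overlap for 4 of the 7 genes, with Mitf, Sox10 and Mlana lower and Tyr higher in lesional CTL, against 75.2% of all genes.

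Schwann cell and mast cell genes were measured beside Mitf and Sox10, since these cells use them too. Of 9 Schwann cell genes, all tested, 8 had a log2 fold change below 0 in the CTL mice, with a median of -0.94 against -0.02 for all genes. With all 8 libraries 0 of the 9 were called, beside 3.58% of all genes. Without replicate 3, Cdh19, Foxd3, Prx and S100b were called lower, beside 12.5% of all genes called in either direction. Mbp (myelin basic protein), at 112 and 109 CPM in baseline CTL and 56.6 and 58.6 in lesional CTL, had a log2 fold change of -0.94 (SE 0.32, edgeR FDR 0.197, or SE 0.17, FDR 0.0127 without replicate 3). The 9 genes summed to 641 and 622 CPM in baseline CTL and to 445 and 463 in lesional CTL, and none was at 0 in any library. By group mean, Pmp22 and Erbb3 were at 209 and 191 CPM in baseline CTL and 158 and 132 in lesional CTL. Egr2, the 1 gene above 0, was at 68.8 and 76.8, and Ngfr hardly differed (11.3 and 11). Other lists were lower too in this contrast: 8 of 8 skeletal muscle genes were below 0 (median -1.13), and 4 of 7 keratinocyte genes (median -1.16).

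With butyrate in lesional skin, 9 of the 9 Schwann cell genes had a log2 fold change above 0, as Sox10 did. Their median was 0.53 against -0.01 for all genes, and 0 were called. Of the keratinocyte genes 6 of 7 were above 0 as well, with a median of 1.03. Both contrasts share the lesional CTL mice. Mast cell genes went the other way on exposure in CTL mice, with 9 of 10 above 0 and a median of 1.48, while Mitf was lower. Of these 10, Cma1, Fcer1a, Hdc and Tpsb2 were called with all 8 libraries, beside 3.58% of all genes. The 7 macrophage genes were all above 0 too, with a median of 0.45, and 0 were called. Whether Schwann cells account for the level of Sox10 in these samples was not tested.

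**Figure D4:**
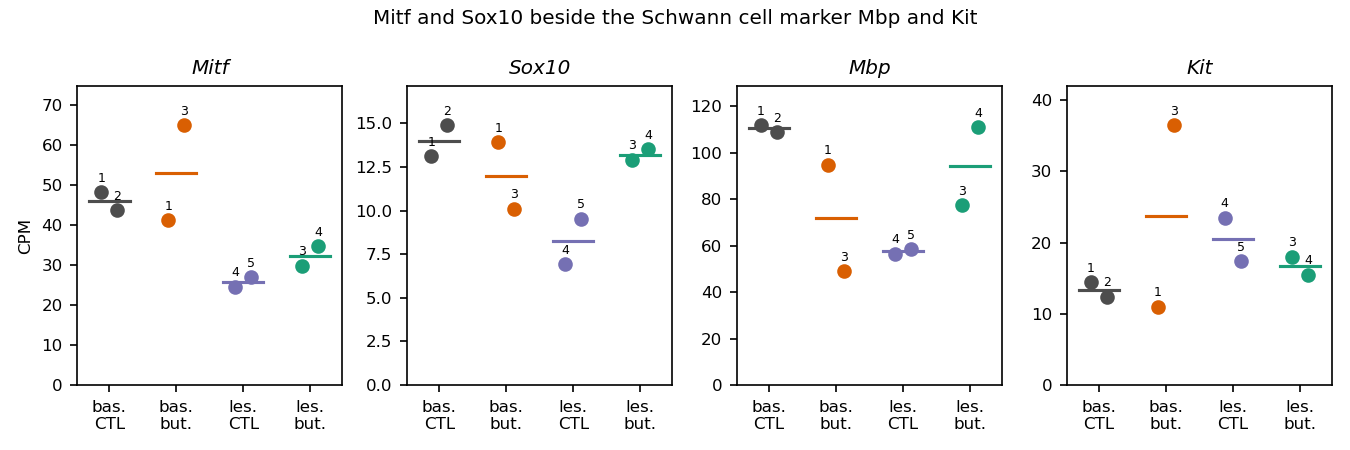
Levels in CPM (linear axes from 0) of Mitf, Sox10, the Schwann cell gene Mbp and Kit in the 2 mice of each group (bas. baseline, les. lesional, but. butyrate; digits are replicates), with a line at the group mean. Mitf and Sox10 are lower in both lesional CTL mice (24.6 and 27.0 CPM, and 6.92 and 9.53) than in both baseline CTL mice, as is Mbp, while Kit is not. Of the 9 Schwann cell genes, 1 that is not drawn (Egr2) had an estimate above 0.

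In butyrate-treated mice the exposure contrast again rested on baseline butyrate replicate 3. Log2 fold changes with all libraries were -5.97 (SE 1.88) for Tyr, -4.26 (1.39) for Mlana, -3.88 (1.36) for Pmel, -3.52 (1.32) for Tyrp1, -3.17 (1.12) for Dct, -0.72 (0.23) for Mitf and 0.14 (0.25) for Sox10, with edgeR FDRs from 0.294 to 0.857. No pigment gene was called beside 0.35% of all genes, and DESeq2 called 5 of the 7 (Tyr, Mlana, Pmel, Tyrp1 and Dct) beside 4.6%. Without replicate 3 the estimates were between -0.44 (Mlana) and 0.36 (Tyrp1), with Mitf at -0.35 (SE 0.14, edgeR FDR 0.175), and no pigment gene was called beside 5.94%. Without replicate 1, edgeR called 6 of the 7 lower, all but Sox10, beside 19.1%, with Slc45a2, Oca2 and Mc1r again not counted.

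The difference between the butyrate effects in lesional and baseline skin was not called for any pigment gene, nor for any gene (0%), with 703 genes at an unadjusted edgeR p under 0.05, among them Sox10 (0.91, SE 0.35) and Tyr (-6.89, SE 2.57). By DESeq2, 37 genes (0.244%) were called, Tyr among them at an FDR of 0.0989. Without replicate 1, edgeR called 6 of the 7 (all but Mitf) beside 20.9%, with Slc45a2, Oca2 and Mc1r not counted. Without replicate 3 the differences were -1.32 (SE 0.87, edgeR FDR 0.726) for Tyr and 0.69 (SE 0.29, FDR 0.575) for Sox10. For 1 gene alone, the smallest p that an exact permutation of 2 against 2 mice allows is 0.333, so genes were read only from the fit over all genes.

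**Figure D5:**
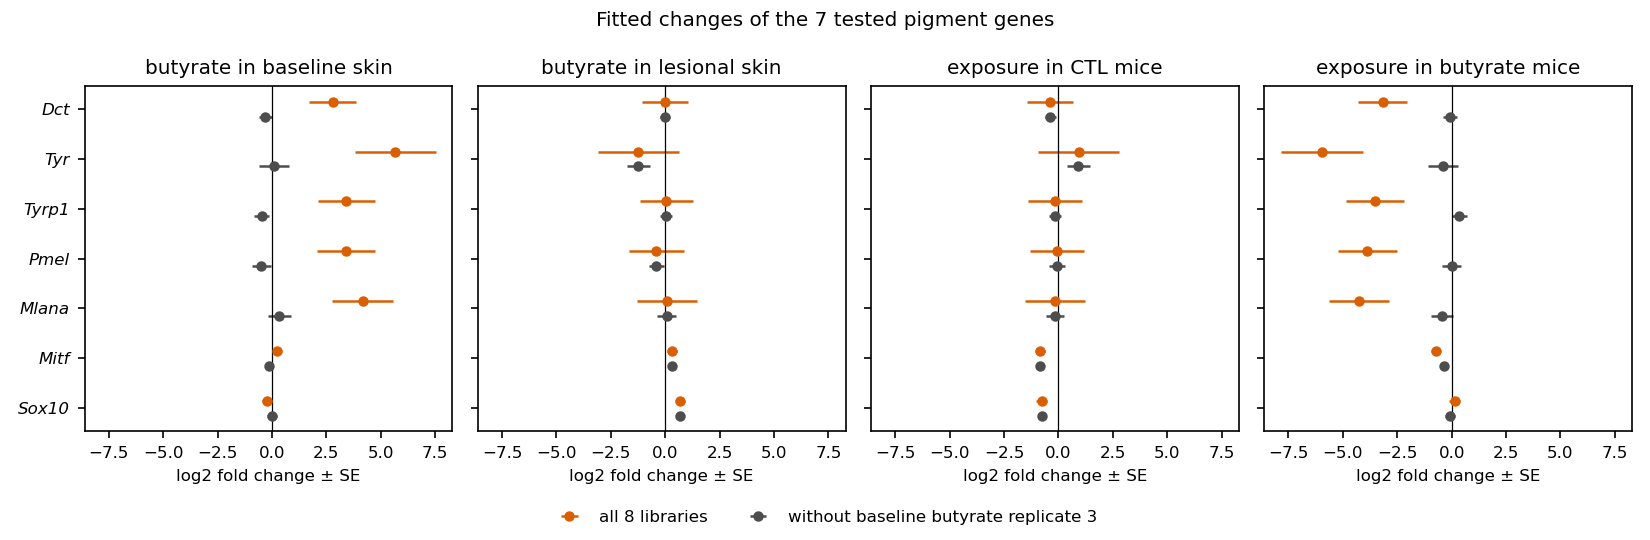
Log2 fold change with its SE for the 7 tested pigment genes in 4 contrasts (panels), from edgeR on all 8 libraries (orange) and without baseline butyrate replicate 3 (grey). Orange points lie at 2.78 to 5.66 for Dct, Tyr, Tyrp1, Pmel and Mlana in the baseline butyrate contrast and the grey points at -0.49 to 0.34, while Mitf (-0.84 and -0.83) and Sox10 (-0.77 in both) hardly differ between fits for exposure in CTL mice.

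Of the 42 pathway genes, 39 were tested, and with all 8 libraries 0 were called in any of the 4 contrasts. Without replicate 3, 4 of the 39 were called on exposure in CTL mice, beside 12.5% of all genes: Pax3 (-1.39, edgeR FDR 0.0451) and Lef1 (-1.09, FDR 0.0146) fell, and Tfec (1.77, FDR 0.012), a relative of Mitf used in macrophages, and Slc7a11 (4.82, FDR 0.00365) rose. The 4 of 39 called are no larger a share than that of all genes, and the median log2 fold change of the 39 was 0.02 against -0.02. Pax3 was at 5.10 and 3.10 CPM in baseline CTL and 1.70 and 1.43 in lesional CTL, and Lef1 at 6.76 and 7.20 against 3.14 and 3.41. Slc7a11 was at 0.998 and 1.22 CPM in baseline CTL and 31.1 and 31.7 in lesional CTL, with 11.3 and 4.22 in lesional butyrate. Its change with butyrate in lesional skin, -2.02 (SE 0.41, edgeR FDR 0.111), was not called. In butyrate-treated mice, Slc7a11 (2.58, FDR 0.0812) and Rab38 (1.27, FDR 0.0398), a small GTPase that sorts tyrosinase and Tyrp1 to the melanosome, were called higher in lesional skin without replicate 3, which is 2 of the 39 beside 5.94% of all genes. This share too was no larger than that of all genes. Rab38 was at 26.1 CPM in baseline butyrate replicate 1 and at 71.5 and 54.0 in lesional butyrate. Neither gene followed the 8 pigment genes in the lesional groups.

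Among the 10 genes, of 14187, whose levels over the 8 libraries were most like the mean standardised log2 CPM of the 7 tested pigment genes were Mgat4a (Pearson r 0.9924), Arhgef19, Gtf2i, Foxe1, Cybrd1, Lef1, Stag2, Cnn3 and Trpv6 (0.9876). All points share their library, and in each of these 10 genes 1 library, baseline butyrate replicate 3, is highest, for example with 214 CPM against 107 to 131 in Gtf2i and 51.9 against 0.0921 to 0.524 in Foxe1. Over the other 7 libraries none of the 10 remained among the 10 most like genes, which were led by Mnat1 (0.957) and Rac3 (0.942).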

How the data were processed

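Skin RNA was sequenced by the authors on an Illumina HiSeq from TruSeq libraries. They aligned reads with STAR (2.5.2) to GRCm38 through RNASik, counted them with featureCounts and deposited raw counts of protein-coding genes, without normalization, which were used as deposited. The table is named as reverse-stranded counts, and neither the annotation release nor the strand of the kit is given in the sources used here. GEO's design text gives a larger number of samples than the 8 used.

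The 10 genes and the gene lists were chosen with earlier results of these data known. Named are all 10 genes, the pathway genes called in any contrast and the 3 of highest mean level in a list, the 10 most like genes by Pearson correlation, and genes shown because a result turns on them, which were chosen after their values were seen. Some genes that these rules pick are not reported here, and the Schwann cell list was counted without them. Groups came from the sample labels, with SCFA read as butyrate from the paper. CPM used TMM-scaled library totals. Tests were run in R 4.3.3 with edgeR 4.0.16 (quasi-likelihood fit, robust, filterByExpr with a minimum count of 10, prior count 0.125, 1 mean for each group) on 15163 genes. The common biological coefficient of variation was 0.276, with 4 residual degrees of freedom. The fit was also tried on simulated data with less spread and no library that stood apart. That trial does not show how the fit behaves on these data. SEs were taken from the log2 fold change and its F statistic. Calls needed an FDR below 0.1 and a fold above 2. Other settings tried were DESeq2 1.42.0, limma-voom (limma 3.58.1), other scalings, filters and thresholds, fits of the compared libraries and fits without 1 library. The sample titles give numbers, and each number was taken as a separate mouse. Intervals and the limit of 3 counts cover counting error only.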

Additional observations from a re-analysis of the deposited data

How the results depend on the processing

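The depth limited Slc45a2, Oca2 and Mc1r, which had 0 to 5 counts outside baseline butyrate replicate 3. With 2 mice a group, 1 library set most counts, and in a fit without 1 mouse the lone mate is assumed to vary like the other groups. Alternatives were added after seeing the data, limma-voom without baseline butyrate replicate 3 and edgeR without it and with no fold limit. Of the alternative estimates of log2 fold changes, 600 kept their direction and side of the threshold, 25 became calls, 33 changed sign and none lost a call, since none was called. No paired analysis was possible because no compared groups have more than 1 replicate number in common.

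All genes called in lesional skin with butyrate were 0 in the main fit, 1 by limma-voom, 124 by DESeq2, 25 with only the compared libraries, 0 to 191 without 1 mouse, 216 by limma-voom without replicate 3 and 312 there with no fold limit by edgeR. In baseline skin with butyrate DESeq2 called 58 genes and 2 pigment genes, and fits without 1 mouse 0 to 3777 genes and 0 to 8 pigment genes, 3 of which passed the filter only through baseline butyrate replicate 3. For exposure in CTL mice the 543 genes became 1093 by DESeq2, 268 at an FDR below 0.05 with no fold limit, 1918 with only the compared libraries, 0 to 1936 without 1 mouse, 1925 by limma-voom without replicate 3 and 5937 by edgeR there with no fold limit, the last with 2 pigment genes. For exposure in butyrate mice the 53 genes became 83 on library totals alone, 698 by DESeq2 with 5 pigment genes, 17 at an FDR below 0.05, 0 with only the compared libraries, 0 to 2990 without 1 mouse with 0 to 9 pigment genes, 919 by limma-voom without replicate 3 and 2182 by edgeR there with no fold limit. For the difference DESeq2 called 37 genes and 1 pigment gene, and fits without 1 mouse 0 to 3275 and 0 to 9, where the highest count, as for exposure in butyrate mice, includes those 3 genes. The cause was not tested, except that fits without a baseline butyrate mouse drop that pair's difference from the shared spread.

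Signs changed near 0 or with baseline butyrate replicate 3. Over the fits that each left out 1 mouse, the log2 fold changes that changed sign ranged as follows. Butyrate in lesional skin gave -0.35 to 0.43 for Dct, -0.32 to 0.53 for Tyrp1, -0.85 to 0.21 for Pmel and -0.60 to 0.53 for Mlana. Butyrate in baseline skin gave -0.31 to 3.69 for Dct, -0.47 to 4.36 for Tyrp1, -0.49 to 4.34 for Pmel and -0.16 to 0.49 for Mitf. Exposure in CTL mice gave -0.64 to 0.22 for Tyrp1 and -0.70 to 0.37 for Pmel, and exposure in butyrate mice -4.47 to 0.36 for Tyrp1, -4.82 to 0.01 for Pmel and -0.07 to 0.39 for Sox10. The difference gave -3.70 to 0.30 for Dct, -4.31 to 0.52 for Tyrp1, -4.74 to 0.08 for Pmel and -0.17 to 0.48 for Mitf. In lesional skin limma-voom, with or without replicate 3, gave 0.05 for Dct and -0.04 for Mlana, and library totals alone gave 0.06 for Pmel on exposure in CTL mice. Limma-voom without replicate 3 gave -0.31 for Dct, -0.47 for Tyrp1, -0.48 for Pmel and -0.16 for Mitf with butyrate in baseline skin, 0.36 for Tyrp1 and -0.07 for Sox10 on exposure in butyrate mice, and 0.36 for Dct, 0.59 for Tyrp1 and 0.19 for Pmel in the difference.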
